A study of Mus musculus with 30 samples.

Results

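Tcf7 and Lef1 encode the transcription factors TCF-1 and LEF-1, and the chromatin at these genes was described here from 20 of the 38526 peaks of an accessibility atlas of mouse natural killer (NK) cells. The 20 are every atlas peak that the authors' table assigns to Tcf7 (9 peaks) or to Lef1 (11 peaks). None was picked or dropped by its values, but the genes themselves were chosen with earlier results of these data known. Open chromatin was measured with ATAC-seq, in which a transposase tags accessible DNA, in 30 libraries of splenic NK cells, cultured over 5 days in a low dose of IL-2 together with IL15:IL15Ra. The EP2/EP4 KO cells (KO) came from GzmbCre mice with germline Ptger2-/- and floxed Ptger4 fl/fl alleles, so that the PGE2 receptor EP4 is deleted by a Cre under Gzmb control and EP2 is missing from all cells. The wild-type cells (WT) came from C57BL/6J mice, which have no Cre, so the effect of receptor loss and that of Cre cannot be told apart from genotype alone. In each genotype there were 4 conditions: PGE2 (100 ng/ml) for 1 h before and throughout 4 h of stimulation through the activating receptor NK1.1, NK1.1 stimulation without PGE2, PGE2 for 5 h without stimulation, and neither. Each group held 4 libraries, except that unstimulated WT cells with PGE2 and untreated unstimulated KO cells had 3. The sources used here give neither the ages of the mice nor whether libraries of a group are separate mice or cultures. The p-values therefore rest on the variation among these libraries, some of which may be technical.

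TCF-1 and LEF-1 bind DNA through an HMG box and recruit either β-catenin, the effector of Wnt signalling, or repressors of the TLE family. In mice TCF-1 is needed early in NK cell development and its level falls as NK cells mature, and in T cells both factors mark naive and stem-like cells. PGE2 is a lipid mediator whose receptors EP2 and EP4 couple to Gs and raise cAMP, and engagement of NK1.1 drives cytokine release and cytotoxicity in NK cells.

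On the mm10 build Tcf7 (gene ID 21414) spans chr11:52246527-52283383 on the minus strand and Lef1 (gene ID 16842) spans chr3:131110297-131224357 on the plus strand, per RefSeq. Peaks are named here by the distance of their centre from the outermost annotated start of the gene, downstream being the direction of transcription. Tcf7 had a promoter peak at chr11:52280434-52283559, 4 intronic peaks centred 8.4, 14.8, 17.4 and 22.3 kb downstream, and 4 intergenic peaks 16.4, 26.3, 31.0 and 35.5 kb upstream, and the last 3 of these overlap the long non-coding RNA gene Gm30217. Lef1 had a promoter peak at chr3:131110713-131113484, 5 intronic peaks 7.7, 29.5, 43.7, 47.4 and 98.2 kb downstream, and 5 intergenic peaks 25.0, 52.9, 90.6, 96.0 and 163.1 kb upstream. The assignment of an intergenic peak to Tcf7 or Lef1 is the authors', and accessibility near a gene is not its expression.

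Sequences before annotated starts are shown because each gene has a promoter peak among the 20. The Tcf7 windows precede starts inside the gene, at chr11:52283014 and chr11:52282595. The bases before the outermost Tcf7 start (chr11:52283383) were not searched. Of the 6 start windows in RefSeq 4 are printed; 1 more of Tcf7, also inside the promoter peak, and 1 more of Lef1, which overlaps the outermost window, held no match and are left out. Each sequence is the 250 bases before a RefSeq start (build GRCm38.p6, the same coordinates as mm10), 5′ to 3′ on the strand of the gene, with matches to the searched motifs in capitals.
Tcf7, start inside the promoter peak, chr11:52282596-52282845, minus strand: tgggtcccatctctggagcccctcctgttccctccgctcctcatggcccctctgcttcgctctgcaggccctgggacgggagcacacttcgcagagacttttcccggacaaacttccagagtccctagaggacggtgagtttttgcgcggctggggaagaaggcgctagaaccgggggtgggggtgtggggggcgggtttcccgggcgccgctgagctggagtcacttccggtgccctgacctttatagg
Lef1, outermost start, chr3:131110047-131110296, plus strand: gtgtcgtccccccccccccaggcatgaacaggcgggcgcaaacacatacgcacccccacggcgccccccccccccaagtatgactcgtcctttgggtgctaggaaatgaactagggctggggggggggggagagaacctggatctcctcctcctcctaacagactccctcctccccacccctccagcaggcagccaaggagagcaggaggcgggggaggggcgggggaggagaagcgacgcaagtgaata
Lef1, start inside the promoter peak, chr3:131112541-131112790, plus strand: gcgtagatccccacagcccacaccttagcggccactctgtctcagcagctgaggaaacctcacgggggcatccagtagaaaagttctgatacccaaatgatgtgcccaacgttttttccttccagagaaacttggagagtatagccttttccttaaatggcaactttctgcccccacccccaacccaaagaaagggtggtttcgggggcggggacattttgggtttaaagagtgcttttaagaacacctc
Lef1, internal start, chr3:131156044-131156293, plus strand: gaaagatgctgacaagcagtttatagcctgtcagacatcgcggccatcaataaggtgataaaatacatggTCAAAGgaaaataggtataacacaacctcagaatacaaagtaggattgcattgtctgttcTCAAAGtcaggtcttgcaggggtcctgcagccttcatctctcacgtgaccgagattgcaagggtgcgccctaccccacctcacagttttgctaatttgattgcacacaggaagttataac

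The windows were searched on both strands for the cAMP response element TGACGTCA, its shorter core TGACG (which the full element contains), the AP-1 motif TGANTCA, the TCF and LEF motif CTTTGA, the RUNX motif TGTGGT and the NFAT motif TGGAAA. The only matches were 2 of the TCF and LEF motif in the window before the internal Lef1 start, which read TCAAAG on the strand printed, at bases 71 and 131. Among 32817 RefSeq windows of 250 bases, 13.8% held CTTTGA, 1.55% the full cAMP response element, 17.7% its shorter core, 6.75% the AP-1 motif, 14% the RUNX motif and 18.6% the NFAT motif. The printed Tcf7 window and the window before the inner Lef1 start lie wholly inside the promoter peaks, while the outermost Lef1 window ends 416 bases from that peak and the internal one lies 841 bases from the 47.4 kb intronic peak.

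Reads in peaks numbered 8444350 to 20153816 per library, and every one of the 20 peaks passed the filter on low values (a mean of at least 10 normalised counts), the weakest value resting on 19 reads. The mean normalised count over the 30 libraries ran from 71.4 at the 26.3 kb upstream Tcf7 peak to 1040 at the Lef1 promoter. Per kilobase of peak, the mean level over all libraries was highest at the 16.4 kb upstream Tcf7 peak (1040 per kb) and was 222 at the Tcf7 promoter, 375 at the Lef1 promoter and 732 at the 52.9 kb upstream Lef1 peak. Of 12 NK cell marker symbols 11 had peaks, all but Cd244, an alternative symbol of Cd244a, which had 3 peaks. Among them were promoter peaks of the receptor gene Ncr1, the transcription factor gene Eomes and the cytokine receptor gene Il2rb (means of 1349, 1549 and 1849 normalised counts). Without a peak in the table were the T cell genes Cd4, Cd8a, Cd8b1, Cd3g, Trac, Themis and Foxp3, 7 of the 15 T cell markers examined. The other 8 had peaks, the strongest at Cd3d and Bcl11b (means of 1584 and 1308), so these lists do not give the purity of the cells. In these bulk libraries a site open in fewer cells and a site less open in each cell cannot be told apart.

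NK1.1 stimulation lowered accessibility at more peaks of Tcf7 and Lef1 than it raised. In untreated KO cells 10 of the 20 peaks fell and 4 rose with stimulation, against a background of 54.5% of all 38525 peaks tested that were called (26.4% lower and 28.1% higher; limma on log2 of the normalised count plus 1, Benjamini-Hochberg adjusted p under 0.05). In untreated WT cells 12 fell and 4 rose, with 56.3% of all peaks called (27.4% lower and 28.9% higher). The median log2 difference of the 20 peaks was -0.20 in KO and -0.33 in WT, beside -0.03 and -0.02 over all peaks tested. The difference between the genotypes in this effect was itself tested and was called at 0 of the 20 peaks. At an unadjusted p under 0.05 there were 3, edgeR and DESeq2 called 0 as well, and 0.00779% of all peaks were called (0.00260% higher and 0.00519% lower).

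The 8.4 kb intronic Tcf7 peak (chr11:52273856-52276068) had the second-smallest p over the 8 groups among the Tcf7 peaks. In KO it read 202, 248, 197 and 192 normalised counts in stimulated libraries and 476, 542 and 480 in unstimulated ones. In WT it read 250, 251, 224 and 167 in stimulated and 637, 561, 716 and 561 in unstimulated libraries. No stimulated library reached the lowest unstimulated one in either genotype. The log2 difference was -1.25 ± 0.14 in KO (± SE, adjusted p = 6.16e-10) and -1.48 ± 0.13 in WT (adjusted p = 1.19e-12).

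Upstream of Tcf7 the 26.3 kb peak (chr11:52309349-52309958) closed furthest. It stood at 28, 31.6, 17.3 and 22.3 in stimulated KO and 68, 90.8 and 71.4 in unstimulated KO libraries. In WT it stood at 36.4, 31.2, 32.5 and 23.4 in stimulated and 119, 121, 107 and 130 in unstimulated libraries. The stimulated and unstimulated ranges did not meet in either genotype, with log2 differences of -1.61 ± 0.25 in KO and -1.93 ± 0.23 in WT (adjusted p = 1.07e-06 and 5.53e-09). The 31.0 kb upstream peak (chr11:52313951-52314843) fell in KO (-1.07 ± 0.19) and in WT (-1.19 ± 0.18), and so did the 14.8 kb intronic peak (-1.32 and -1.14). The 35.5 kb upstream peak moved little, by -0.23 in KO and -0.21 in WT. These small calls were lost without any of 4 single libraries in each genotype. In KO they were untreated stimulated replicates 3 and 4 and untreated unstimulated replicates 2 and 3 (adjusted p up to 0.17). In WT they were untreated stimulated replicates 3 and 4 and untreated unstimulated replicates 1 and 2 (up to 0.146). The KO call was also lost with TMM factors (0.0507), with edgeR (0.0523) and when only the groups compared were fitted (0.0888).

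At Lef1 the 47.4 kb intronic peak (chr3:131157135-131158263), the peak nearest to the internal start whose sequence is printed above, fell furthest in WT. It read 350, 371, 356 and 368 in stimulated KO and 843, 743 and 730 in unstimulated KO libraries. In WT it read 525, 439, 366 and 462 in stimulated and 1065, 907, 852 and 900 in unstimulated libraries. All stimulated libraries were below all unstimulated ones of their genotype (log2 difference -1.09 ± 0.10 in KO and -1.06 ± 0.10 in WT). The 7.7 kb intronic peak fell by 0.92 in KO and by 0.99 in WT on the log2 scale, and the 163.1 kb upstream peak fell by 1.11 in KO and by 0.88 in WT. The 43.7 and 98.2 kb intronic peaks were not called in KO (log2 differences 0.08 and -0.16) and were called lower in WT (-0.45 and -0.22), and neither difference between the genotypes was called. The WT call at 43.7 kb was lost without untreated unstimulated replicate 1 or 3 (adjusted p = 0.0814 and 0.104), and that at 98.2 kb without untreated unstimulated replicate 1 or untreated stimulated replicate 3 (0.0713 and 0.0745).

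A smaller set of peaks opened with stimulation, and the intronic Tcf7 peak 22.3 kb downstream (chr11:52260766-52261388) had the largest log2 difference of the 20 in both genotypes. Stimulated KO libraries read 227, 241, 285 and 302 and unstimulated KO libraries 43.8, 68.9 and 55.4. Stimulated WT libraries read 266, 215, 275 and 230 and unstimulated WT libraries 27.5, 37.9, 36.3 and 47.8. The ranges lay far apart in both genotypes. The log2 difference was 2.23 ± 0.19 in KO (adjusted p = 1.16e-12) and 2.71 ± 0.17 in WT (adjusted p = 4.82e-16).

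At Lef1 the 25.0 kb upstream peak (chr3:131084929-131085733) opened likewise. It stood at 88.3, 123, 99.7 and 120 in stimulated KO and 37.8, 61 and 42.5 in unstimulated KO libraries. In WT it stood at 142, 67.8, 109 and 122 in stimulated and 39.3, 34, 34.4 and 33.4 in unstimulated libraries. The ranges did not meet in either genotype. The log2 difference was 1.19 ± 0.22 in KO and 1.57 ± 0.21 in WT. The 52.9 kb upstream Lef1 peak rose by 0.46 ± 0.12 in KO and 0.39 ± 0.11 in WT, and the KO call was lost without untreated unstimulated replicate 2 (0.26, adjusted p = 0.0592). Each gene thus had peaks that opened and peaks that closed within the same 4 h of stimulation.

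**Figure D1:**
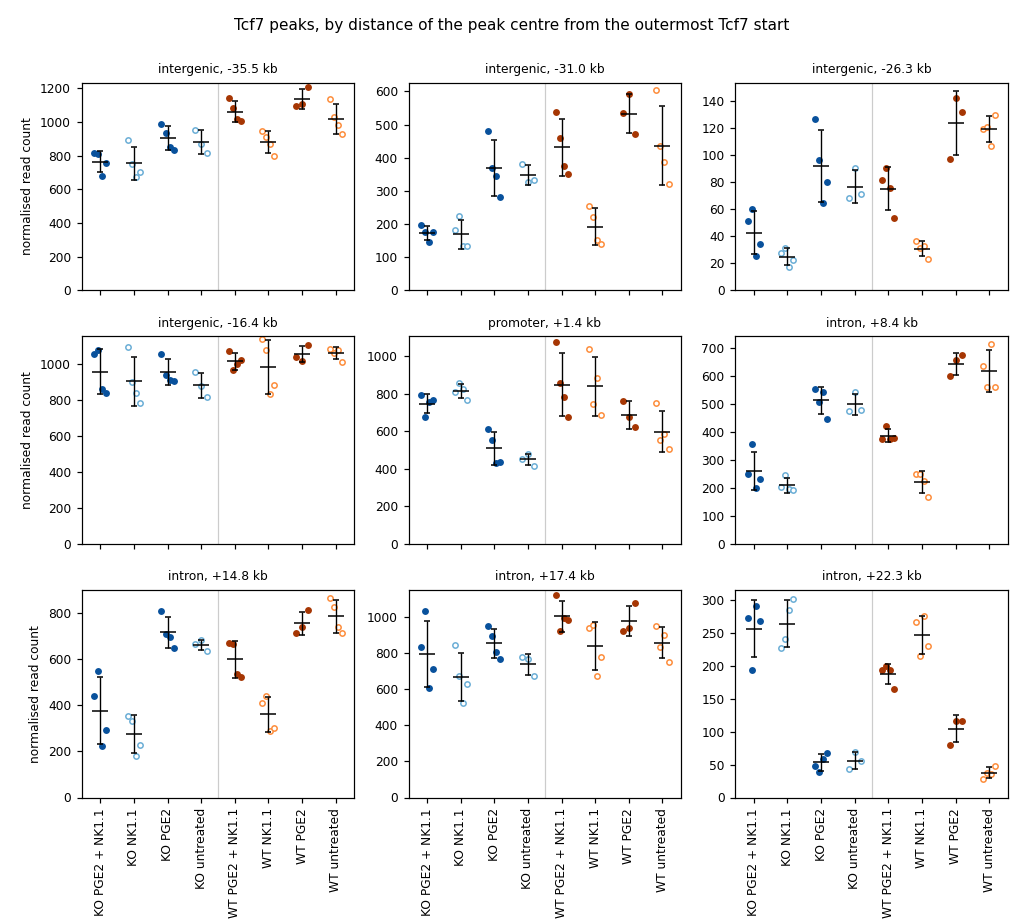
Normalised read count (y axis, from 0) of the 9 Tcf7 peaks in every library, by group (x axis). Points are libraries (filled with PGE2, open without), bars are the mean ± SD, KO groups are blue and WT groups orange, and titles give the class and the distance from the Tcf7 start. At the peak 22.3 kb downstream stimulated libraries ran from 165 to 302 and the untreated unstimulated ones from 27.5 to 68.9.

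The promoters of Tcf7 and Lef1 were not called lower with stimulation, unlike the distal peaks that closed. The Tcf7 promoter read 807, 856, 826 and 764 in stimulated KO and 453, 478 and 417 in unstimulated KO libraries. In WT it read 1039, 743, 882 and 688 in stimulated and 751, 551, 583 and 506 in unstimulated libraries. The KO ranges were apart and the WT ranges overlapped. The promoter rose in both genotypes while 5 other Tcf7 peaks fell, with a log2 difference of 0.85 ± 0.13 in KO (adjusted p = 1.18e-06) and 0.48 ± 0.12 in WT (adjusted p = 0.00108).

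The Lef1 promoter read 1184, 1140, 918 and 998 in stimulated KO and 1088, 840 and 943 in unstimulated KO libraries. In WT it read 1177, 1102, 1044 and 1014 in stimulated and 1389, 1219, 1069 and 1105 in unstimulated libraries. The ranges overlapped in both genotypes, and no change was called (log2 difference 0.15 ± 0.10 in KO and -0.14 ± 0.09 in WT). The 16.4 kb upstream Tcf7 peak (783 to 1139 normalised counts over the 30 libraries) and the 90.6 kb upstream Lef1 peak (311 to 449) were called in none of the 19 comparisons made. The 17.4 kb intronic Tcf7 peak was not called with stimulation either (-0.17 in KO and -0.04 in WT).

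Stimulated WT cells had most of the Tcf7 and Lef1 peaks more open with PGE2 than without. In stimulated WT cells 13 of the 20 peaks were higher and 1 was lower with PGE2 (5 higher at Tcf7, 8 higher and 1 lower at Lef1), while 40.5% of all peaks were called (20.2% higher and 20.4% lower). The median log2 difference was 0.48 over the 20 peaks and -0.01 over all peaks tested. Stimulated WT cells without PGE2 stand on the minus side here and on the plus side of the stimulation effect in WT, so these 2 comparisons share libraries and their opposite signs at a peak are not independent.

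The 7.7 kb intronic Lef1 peak (chr3:131117437-131118560) had the smallest p over the 8 groups among the Lef1 peaks. In KO it read 253, 271, 243 and 249 with PGE2 and stimulation, 244, 248, 236 and 256 with stimulation alone, 602, 516, 445 and 485 with PGE2 alone and 437, 466 and 503 with neither. Both stimulated KO groups were low and overlapped each other. In WT the peak read 603, 564, 593 and 580 with PGE2 and stimulation, 277, 309, 294 and 247 with stimulation alone, 707, 544 and 629 with PGE2 alone and 548, 581, 583 and 523 with neither. Of the WT libraries those stimulated without PGE2 stood apart, all below the other 3 groups.

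The log2 difference with PGE2 in stimulated cells at this Lef1 peak was 0.04 ± 0.09 in KO (adjusted p = 0.999) and 1.06 ± 0.09 in WT (adjusted p = 3.72e-12). The PGE2 effects of the genotypes differed by -1.01 ± 0.12 (KO minus WT, adjusted p = 1.71e-07). Ordered by mean, the highest group was WT with PGE2 at 627 ± 81.4, followed by WT with PGE2 and stimulation at 585 ± 16.9, untreated WT at 559 ± 28.8, KO with PGE2 at 512 ± 66.7 and untreated KO at 468 ± 33.2 (SD, n = 3 or 4). Each of these 5 overlapped the next in range. Stimulated WT at 282 ± 26.5, stimulated KO with PGE2 at 254 ± 12.1 and stimulated KO at 246 ± 8.33 overlapped each other in turn and lay below the other 5.

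**Figure D2:**
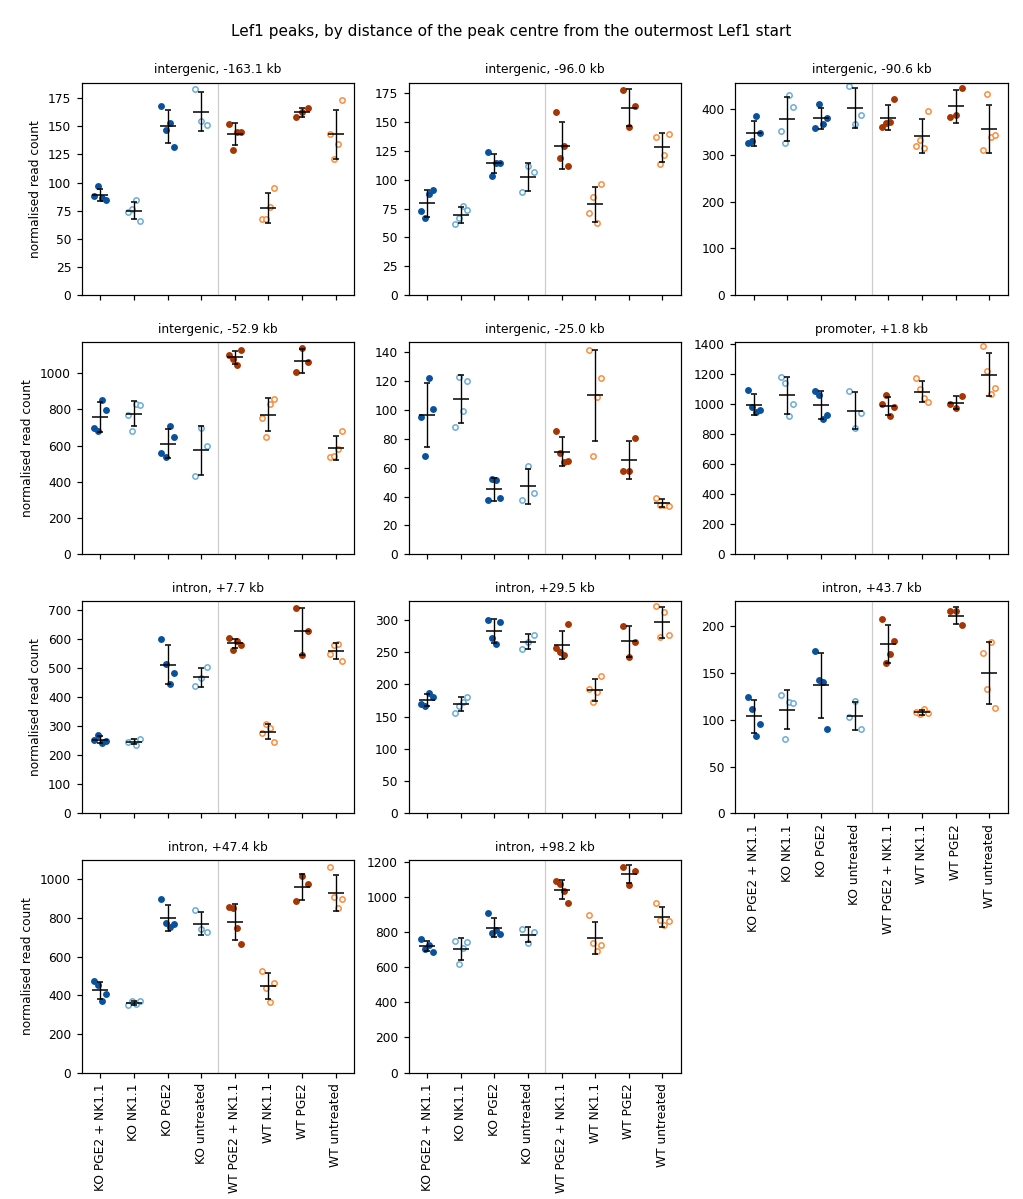
Normalised read count (y axis, from 0) of the 11 Lef1 peaks in every library, by group (x axis). Points are libraries (filled with PGE2, open without), bars are the mean ± SD, KO groups are blue and WT groups orange, and titles give the class and the distance from the Lef1 start. At the intronic peak 7.7 kb downstream, KO libraries with PGE2 and NK1.1 stimulation (243 to 271) lie with those stimulated without PGE2, and WT libraries with both (564 to 603) lie with the unstimulated groups.

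Other Lef1 introns and upstream sites were higher with PGE2 as well. The 47.4 kb intronic peak read 855, 851, 747 and 666 in stimulated WT libraries with PGE2, all above the stimulated WT libraries without it listed before (log2 difference 0.80 ± 0.10). The 163.1 kb upstream peak (chr3:130946685-130947778) read 152, 129, 145 and 145 with PGE2 and 67.8, 67.8, 78.5 and 95.4 without in stimulated WT, without overlap (log2 difference 0.89 ± 0.13). The 96.0 kb upstream peak was higher by 0.72, and the intronic peaks at 29.5, 43.7 and 98.2 kb by 0.45, 0.73 and 0.45 on the log2 scale, each with no overlap between the groups.

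At Tcf7 the 31.0 kb upstream peak was among the most changed. Stimulated WT libraries read 539, 458, 376 and 352 with PGE2 and 254, 222, 152 and 139 without, against 603, 435, 387 and 322 in untreated unstimulated WT libraries (log2 difference with PGE2 1.19 ± 0.18, adjusted p = 1.35e-06). The 26.3 kb upstream peak read 81.5, 90.4, 75.4 and 53.3 with PGE2 and 36.4, 31.2, 32.5 and 23.4 without in stimulated WT, and every library with PGE2 was above every library without (1.25 ± 0.23). At the 8.4 kb intronic peak the stimulated WT libraries with PGE2, at 375, 423, 375 and 378, lay between the stimulated and unstimulated libraries without it (0.81 ± 0.13).

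The 14.8 kb intronic Tcf7 peak (chr11:52268060-52269027) varied with the replicate number as well. Stimulated KO libraries read 438, 550, 224 and 293 with PGE2 and 355, 330, 181 and 229 without, in the order of replicates 1 to 4. Stimulated WT libraries read 670, 665, 534 and 522 with PGE2 and 409, 440, 290 and 303 without. In each of the 4 stimulated groups replicates 1 and 2 were above replicates 3 and 4, and in WT the libraries with PGE2 were higher both among replicates 1 and 2 and among replicates 3 and 4. In KO each stimulated library with PGE2 was also above the same-numbered one without, with overlap among replicates 3 and 4. The PGE2 effect was not called in KO (0.43 ± 0.18, adjusted p = 0.999) and was called in WT (0.74 ± 0.18, adjusted p = 0.00101). The difference between the genotypes was not called (-0.32 ± 0.25, adjusted p = 0.437). The same order of replicates held at the 31.0 kb upstream Tcf7 peak in stimulated WT, with and without PGE2. It held at the 26.3 kb upstream peak in stimulated KO, with and without PGE2, but not in stimulated WT without PGE2. At that peak too, each stimulated KO library with PGE2 was above the same-numbered one without. The main fit has no replicate term, and the sources used here do not say what the replicate numbers stand for.

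The peaks that stimulation opens did not share this rise. The 22.3 kb intronic Tcf7 peak read 193, 199, 193 and 165 in stimulated WT libraries with PGE2, all below the 266, 215, 275 and 230 without, but its log2 difference of -0.39 ± 0.17 missed the threshold (adjusted p = 0.0704). The 25.0 kb upstream Lef1 peak read 85.5, 70.3, 64.2 and 64.5 with PGE2 and 142, 67.8, 109 and 122 without, and was called lower (-0.58 ± 0.21, adjusted p = 0.0212), a call lost without any of stimulated PGE2-treated WT replicates 3 and 4 or stimulated untreated WT replicates 1 and 4 (adjusted p up to 0.107). The 52.9 kb upstream Lef1 peak differed from both in being higher with PGE2 (0.50) as well as with stimulation. Neither promoter was called, with log2 differences of 0.01 ± 0.12 at Tcf7 and -0.13 ± 0.09 at Lef1.

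Stimulation in KO and PGE2 in stimulated WT share no library and could be set side by side. All 10 peaks of Tcf7 and Lef1 that stimulation lowered in untreated KO cells were among the 13 that were higher with PGE2 in stimulated WT cells, which is 100% of the KO list and 76.9% of the WT list. Over all peaks tested, 4735 were on both lists, 46.5% of the 10185 that stimulation lowered in KO and 61% of the 7767 that were higher with PGE2 in WT. The 20 peaks are not independent of each other, and no test was attached to this overlap.

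Without stimulation PGE2 raised fewer of these peaks. In unstimulated WT cells 5 of the 20 were called higher and 0 lower (1 at Tcf7 and 4 at Lef1), with 14.9% of all peaks called (10.9% higher and 4.03% lower). At the Tcf7 peak 22.3 kb downstream, the site that stimulation opens, unstimulated KO libraries read 47.9, 38.3, 59.2 and 67.3 with PGE2 and 43.8, 68.9 and 55.4 without, with overlap (log2 difference -0.08 ± 0.19). Unstimulated WT libraries read 80.4, 116 and 116 with PGE2 and 27.5, 37.9, 36.3 and 47.8 without, with no overlap (1.46 ± 0.19, adjusted p = 2.33e-07). The PGE2 effect at this peak differed between the genotypes by -1.54 ± 0.27 (KO minus WT, adjusted p = 0.000146).

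At Lef1 the 52.9 kb upstream peak (chr3:131056885-131057944) read 557, 535, 706 and 645 with PGE2 and 429, 697 and 595 without in unstimulated KO libraries, which overlapped (log2 difference 0.11 ± 0.12). Unstimulated WT libraries read 1004, 1138 and 1062 with PGE2, all above the 539, 544, 583 and 681 without (0.87 ± 0.12, adjusted p = 7.31e-07). The genotypes differed in this effect by -0.76 ± 0.17 (adjusted p = 0.00294). These 2 peaks, 1 of each gene, were the ones at which the PGE2 effect in unstimulated cells was called as different between genotypes, with 6.18% of all peaks called (4.94% lower and 1.24% higher, KO minus WT).

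The 25.0 kb upstream Lef1 peak rose by 0.85 ± 0.22 with PGE2 in unstimulated WT, where libraries with PGE2 read 57.4, 57.6 and 80.6 and untreated ones 39.3, 34, 34.4 and 33.4. The 98.2 and 43.7 kb intronic Lef1 peaks rose by 0.35 and 0.51 (adjusted p = 0.00229 and 0.049). Leaving out PGE2-treated unstimulated WT replicate 4 brought the number of called peaks to 3, without the 25.0 kb (adjusted p = 0.0649) and 43.7 kb (0.0842) peaks. The 43.7 kb call was also lost without PGE2-treated replicate 2 or 3, or untreated replicate 2 or 4, of unstimulated WT (adjusted p up to 0.189). Scaling to reads in peaks (0.0586) and TMM factors (0.0513) lost it too. The effect of PGE2 in WT itself differed between stimulated and unstimulated cells at 10 peaks, with 25.3% of all peaks called (10.6% higher and 14.7% lower). At 8 peaks the difference was positive (stimulated minus unstimulated). It was negative at the 22.3 kb intronic Tcf7 peak (-1.85 ± 0.26) and at the 25.0 kb upstream Lef1 peak (-1.44 ± 0.30).

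PGE2 in KO cells gave no call at any of the 20 peaks, whether the cells were unstimulated (0% of all peaks called) or stimulated (0.00260% called, 1 peak). With limma, 0 peaks of Tcf7 or Lef1 had an unadjusted p under 0.05 in unstimulated KO and 4 had in stimulated KO, and edgeR and DESeq2 called 0 in both. The medians over the 20 peaks were 0.08 in unstimulated and 0.05 in stimulated KO on the log2 scale, beside 0.01 and -0.01 over all peaks. In stimulated cells the PGE2 effect was smaller in KO than in WT at 9 peaks, 2 of Tcf7 and 7 of Lef1 (20.0% of all peaks called for this difference, 10.2% lower and 9.80% higher). At Tcf7 these were the 31.0 kb upstream peak (-1.12 ± 0.25) and the 8.4 kb intronic peak (-0.52 ± 0.18). The 8.4 kb call was lost when only the groups compared were fitted (adjusted p = 0.0737), and without any of stimulated PGE2-treated KO replicates 3 and 4, stimulated untreated KO replicate 2, stimulated PGE2-treated WT replicate 2 or stimulated untreated WT replicate 4 (up to 0.111). The 26.3 kb upstream Tcf7 peak was not among the 9 peaks: stimulated KO libraries read 51.2, 60.2, 25.2 and 34.3 with PGE2 and 28, 31.6, 17.3 and 22.3 without, a log2 difference of 0.72 ± 0.23 that was not called, and the genotypes differed by -0.53 ± 0.33 (adjusted p = 0.287).

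Compared directly under PGE2, the called peaks were lower in KO cells with 1 exception. In stimulated cells with PGE2, 14 of the 20 peaks were lower and 1 was higher in KO than in WT (40.2% of all peaks called, 19.7% lower and 20.5% higher). In unstimulated cells with PGE2 8 were lower and none higher (14.4% called, 8.99% lower and 5.46% higher). The largest of these was at the 31.0 kb upstream Tcf7 peak, where stimulated libraries with PGE2 read 198, 176, 146 and 176 in KO and 539, 458, 376 and 352 in WT, with no overlap (log2 difference -1.29 ± 0.18, adjusted p = 3.16e-07). The 7.7 kb intronic Lef1 peak was lower in KO by 1.20 on the log2 scale, from the values given above. The single peak that was higher in KO, the 22.3 kb intronic Tcf7 peak (0.44 ± 0.17, adjusted p = 0.0428), lost its call without any of 7 of the 8 libraries concerned (adjusted p up to 0.129). For unstimulated cells with PGE2, the count of 8 was 5 without KO replicate 4, WT replicate 2 or WT replicate 4 of those groups. The median KO against WT difference of the 20 peaks in unstimulated cells was -0.33 with PGE2 and -0.25 without it. In stimulated cells this median was -0.55 with PGE2 and -0.12 without it.

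Without PGE2, fewer differences between the genotypes were called over the genome. None of the 20 peaks was called between untreated KO and WT cells, unstimulated (1.73% of all peaks called, 0.636% lower and 1.09% higher) or stimulated (0.724% called, 0.345% lower and 0.379% higher). With limma 11 and 5 of the 20 had an unadjusted p under 0.05, and by count tests edgeR called 0 in both, and DESeq2 1 (lower in KO) in unstimulated and 0 in stimulated cells. In unstimulated cells 16 of the 20 means were lower in KO, and at 9 peaks no KO library reached the lowest WT library, beside 6.54% of all peaks tested. The smallest adjusted p was 0.0764. Leaving out untreated unstimulated KO replicate 2 gave 2 called peaks, 1 higher and 1 lower, and leaving out stimulated untreated WT replicate 3 gave 1 in stimulated cells.

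**Figure D3:**
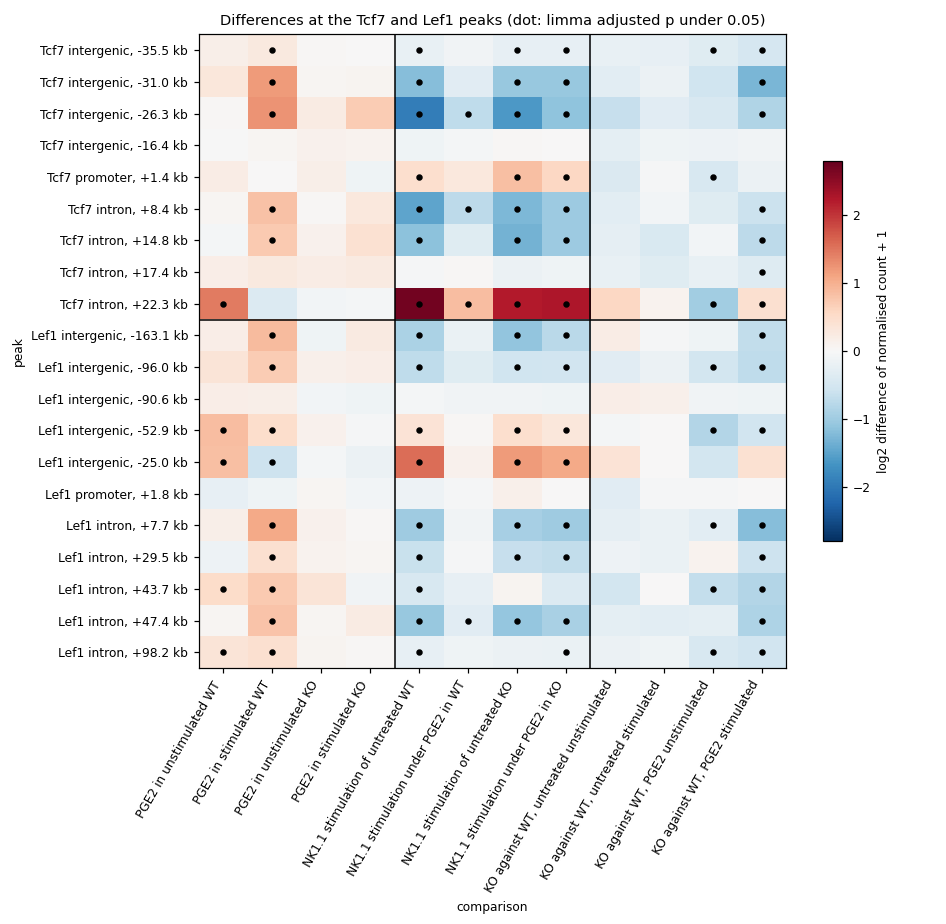
Log2 difference (colour, red higher and blue lower in the group named first) of the 20 peaks (rows, with class and distance from the gene start) in 12 comparisons (columns: PGE2 against untreated, stimulated against unstimulated, KO against WT). Dots mark a limma adjusted p under 0.05. The PGE2 columns of KO hold no dot, the stimulation columns of untreated KO and WT hold 14 and 16, and that of PGE2-treated WT holds 4.

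Cells given both PGE2 and stimulation were also compared with cells given neither, a comparison added after the values had been seen. In KO 4 peaks were higher and 9 lower (51.0% of all peaks called, 26.6% higher and 24.3% lower), with a median log2 difference of -0.21 over the 20 peaks beside -0.04 over all. In WT 5 were higher and 4 lower (38.9% called, 23.9% higher and 15.0% lower), with a median of 0.04 beside -0.04. In KO the 7.7 kb intronic Lef1 peak (-0.88 ± 0.09) and the 31.0 kb upstream Tcf7 peak (174 ± 21.4 with both and 347 ± 30.7 with neither, mean ± SD) were lower with both than with neither, whereas in WT they were not called (0.07 ± 0.09 and -0.00 ± 0.18). The 8.4 kb intronic Tcf7 peak was lower in WT as well (-0.67 ± 0.13), and so was the 26.3 kb upstream peak (-0.68 ± 0.23, not called without stimulated PGE2-treated WT replicate 4, adjusted p = 0.0935). Of the 19 comparisons, this one in WT alone called the Lef1 promoter (-0.27 ± 0.09), and without untreated unstimulated WT replicate 1 or stimulated PGE2-treated WT replicate 3 it was not (adjusted p = 0.104 and 0.0607). Under PGE2, stimulation called 4 peaks higher and 11 lower in KO (54.8% of all peaks called, 27.7% higher and 27.1% lower). In WT it called 1 higher and 3 lower (16.5% called, 12.7% higher and 3.80% lower). This difference between the genotypes was called at 7 peaks, 2 positive and 5 negative (KO minus WT, 20.3% of all peaks called, 11.8% higher and 8.43% lower). Without any of stimulated PGE2-treated WT replicate 3 or unstimulated PGE2-treated WT replicates 3 and 4, the WT count was 2. Without stimulated PGE2-treated KO replicate 3, unstimulated PGE2-treated KO replicate 1 or unstimulated PGE2-treated WT replicate 4 the count of 7 was 4.

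**Figure D4:**
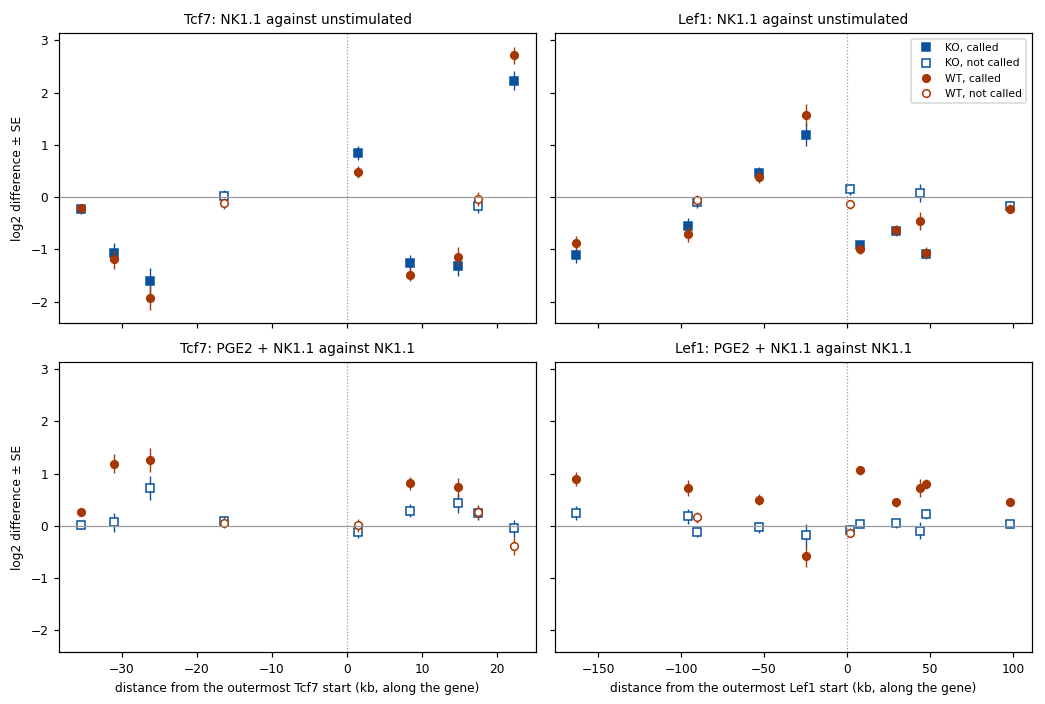
Log2 difference ± SE (y axis) of each peak against the distance of its centre from the gene start in kb (x axis, positive downstream), for NK1.1 stimulation of untreated cells (top) and for PGE2 in stimulated cells (bottom), with KO as squares and WT as circles, filled where called. In the top panels KO and WT lie together at -1.61 and -1.93 at the peak 26.3 kb upstream of Tcf7 and at 2.23 and 2.71 at the one 22.3 kb downstream, and in the bottom panels no KO peak is called.

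By position, peaks of like behaviour lay in runs, and runs that closed with stimulation alternated with ones that opened. At Tcf7 the called upstream peaks closed and the promoter opened. Downstream of it the peaks at 8.4 and 14.8 kb closed, the one at 17.4 kb was not called, and the one at 22.3 kb opened. Upstream of Lef1 the peaks at 25.0 and 52.9 kb opened, the one at 90.6 kb was not called, and those at 96.0 and 163.1 kb closed. The called intronic Lef1 peaks all closed. Across the 30 libraries the log2 levels of the 7.7 and 47.4 kb intronic Lef1 peaks had a Pearson r of 0.94, and so did those of the 31.0 kb upstream Tcf7 and 47.4 kb intronic Lef1 peaks, which lie on different chromosomes. The 8.4 and 22.3 kb intronic Tcf7 peaks had an r of -0.84. These correlations share the 8 groups, the libraries and their scaling, and describe the values only.

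The 4 peaks of other genes with the most similar profile over the 30 libraries (Pearson r of log2 levels, among 34336 peaks with a mean of at least 50, at most 1 peak a gene) were as follows. For the 22.3 kb intronic Tcf7 peak they were assigned to 4930563J15Rik (0.985), Ccdc88b (0.984), Cdk6 (0.984) and Rgs8 (0.983), and for the Tcf7 promoter to Pik3r5 (0.920), Smad3 (0.914), Gm27162 (0.910) and Pde5a (0.910). For the 7.7 kb intronic Lef1 peak they were assigned to Rasgrf2 (0.979), Dnajc5b (0.978), Slc25a33 (0.978) and Otulinl (0.976), and for the Lef1 promoter to Lta4h (0.851), Slf2 (0.844), Sulf2 (0.842) and Runx1 (0.831).

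Peaks assigned to other genes within 100 kb were read to see where these profiles end. Near Tcf7 there were 10 peaks of 4 other genes, and with PGE2 in stimulated WT 3 were higher and 2 lower, beside 20.2% and 20.4% of all peaks. With stimulation of untreated WT 1 was higher and 4 were lower, beside 28.9% and 27.4%. Counts this small cannot be told from those shares. The peak that the table assigns to Skp1a (a ubiquitin ligase subunit), at chr11:52249454-52251167, lies inside the RefSeq span of Tcf7, and averaged 102 ± 23.3 in stimulated WT with PGE2, 64.6 ± 12.8 in stimulated WT without and 164 ± 17.7 in untreated unstimulated WT (SD, n = 4 each). It fell with stimulation (-1.34 ± 0.20) and was higher with PGE2 in stimulated WT (0.64 ± 0.20), and was not called with PGE2 in stimulated KO (0.10 ± 0.20). The peak at chr11:52340474-52341878, beyond the farthest upstream Tcf7 peak and assigned to Vdac1 (a mitochondrial channel), averaged 925 ± 53 in stimulated WT with PGE2, 504 ± 50.1 without and 974 ± 52.1 in untreated unstimulated WT, with log2 differences of -0.95 ± 0.09 for stimulation and 0.88 ± 0.09 for PGE2 in stimulated WT. The promoters of Skp1a and Vdac1 were not called in either comparison. Near Lef1 there were 5 peaks of 3 other genes, with 1 higher and 1 lower with PGE2 in stimulated WT, and 1 higher and 2 lower with stimulation of untreated WT. The peak at chr3:131232242-131232971, just past the 3′ end of Lef1 and assigned to Hadh (a mitochondrial dehydrogenase), averaged 69.8 ± 16.6 in stimulated WT with PGE2, 29.6 ± 3.79 without and 62.1 ± 7.64 in untreated unstimulated WT (-1.05 ± 0.21 for stimulation, 1.19 ± 0.21 for PGE2 in stimulated WT). The rest near Lef1 were called higher with PGE2 in no case. These examples were chosen after their values were seen.

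Wider gene groups were counted beside these peaks. Of all peaks tested, 20.2% were higher and 20.4% lower with PGE2 in stimulated WT, 10.9% and 4.03% with PGE2 in unstimulated WT, and 28.9% and 27.4% with stimulation of untreated WT. Relatives and nuclear partners of TCF-1 and LEF-1 (77 peaks of 17 genes, among them the TCF relatives Tcf7l1 and Tcf7l2, β-catenin and the TLE repressors) had 15 peaks higher and 10 lower with PGE2 in stimulated WT, and 16 higher and 26 lower with stimulation of untreated WT, with medians of 0.06 and -0.16 beside -0.01 and -0.02 over all peaks. With PGE2 in stimulated WT these shares were 19.5% higher, near the 20.2% of all peaks, and 13.0% lower. With PGE2 in unstimulated WT 5 of the 77 were higher and 6 lower (6.49% and 7.79%, beside 10.9% and 4.03%), with a median of -0.06. The peaks named next are single cases and do not stand for the list. An intronic Tcf7l2 peak averaged 386 ± 55.3 in stimulated WT with PGE2 and 202 ± 26.3 without (log2 difference 0.93 ± 0.10, adjusted p = 2.38e-09), and another rose in unstimulated WT, at 748 ± 27.7 with PGE2 and 411 ± 82.4 without (0.88 ± 0.11). An intronic Tle4 peak was at 267 ± 16.3 with PGE2 and 167 ± 29.5 without in stimulated WT (0.69 ± 0.11), and an intergenic Tle3 peak opened with stimulation, at 364 ± 65 against 107 ± 18.9 in unstimulated WT (1.75 ± 0.14; SD over 3 or 4 libraries throughout). An exonic peak of Ctnnb1, which encodes β-catenin, was lower in KO than in WT when both had PGE2 and stimulation (153 ± 26.9 and 285 ± 48.3, log2 difference -0.89 ± 0.13).

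Wnt receptors and the β-catenin destruction complex (87 peaks of 27 genes) were split, with 10 peaks higher and 11 lower with PGE2 in stimulated WT, and 22 higher and 26 lower with stimulation of untreated WT. The called share was 24.1% beside 40.5% of all peaks with PGE2, and 55.2% beside 56.3% with stimulation. An intergenic peak of the kinase gene Csnk1e was higher with PGE2 in stimulated WT (170 ± 14.5 against 62.2 ± 11.7 without, log2 difference 1.45 ± 0.14), and an intronic peak of Fbxw11, which encodes a subunit of the ligase that degrades β-catenin, was lower (86 ± 13 against 188 ± 6.02, -1.13 ± 0.17). Lists of lymphocyte states were read in the same way. Of 136 peaks of 17 naive and stem-like genes, 31 were higher and 1 lower with PGE2 in unstimulated WT, and 45 higher and 32 lower with PGE2 in stimulated WT. The higher share was 22.8% beside 10.9% of all peaks in unstimulated WT, and 33.1% beside 20.2% in stimulated WT. The lower share was 0.735% beside 4.03% in unstimulated WT, and 23.5% beside 20.4% in stimulated WT. With stimulation of untreated WT 53 of the 136 peaks were higher and 26 lower (39.0% and 19.1%, beside 28.9% and 27.4%). An intergenic peak of Bcl6, a repressor tied to memory and follicular fates, averaged 210 ± 36.7 with PGE2 and 102 ± 9.72 without in unstimulated WT (1.02 ± 0.12). Of 113 peaks of 15 effector and maturation genes, 13 were higher and 45 lower with PGE2 in stimulated WT. These shares were 11.5% and 39.8%, beside 20.2% and 20.4% of all peaks. With PGE2 in unstimulated WT 18 were higher and 8 lower (15.9% and 7.08%, beside 10.9% and 4.03%). With stimulation of untreated WT 54 were higher and 25 lower (47.8% and 22.1%, beside 28.9% and 27.4%). Among those lower with PGE2 in stimulated WT was an intronic peak of the chemokine receptor gene Cx3cr1 (435 ± 39.9 with PGE2 and 981 ± 34.6 without, -1.17 ± 0.08). Another was an intergenic peak of Tbx21, which encodes T-bet (118 ± 24.2 and 343 ± 39.3, -1.54 ± 0.14).

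Since Tcf7 and Lef1 are high in T cells, T cell markers were read beside them. The 24 peaks of the 8 T cell marker genes with a peak (Cd3e, Cd3d, Cd5, Cd6, Cd28, Bcl11b, Trat1 and Lat) summed to 5786 to 6614 normalised counts in stimulated KO libraries with PGE2, 5985 to 6535 in stimulated KO libraries without and 6295 to 6740 in untreated unstimulated KO libraries. In WT the sums were 6522 to 7058, 6184 to 6952 and 6736 to 7459 in the same order. Of these peaks 9 were higher and 3 lower with PGE2 in stimulated WT, and 6 higher and 10 lower with stimulation of untreated WT. With PGE2 the higher share was 37.5% beside 20.2% of all peaks, and with stimulation the lower share was 41.7% beside 27.4%. The sums overlapped between stimulated WT libraries with and without PGE2, and the strongest of the peaks, at Cd3d and Bcl11b, had means of 1584 and 1308 over all libraries. The part of T cells in the values of Tcf7 and Lef1 was not tested. ILC2 and ILC3 markers summed to 10806 to 12343 in stimulated WT with PGE2 and 9449 to 10112 without, and to 11082 to 11636 in unstimulated WT with PGE2 and 9290 to 10141 without, and Kit and Gata3 on that list are also expressed by subsets of NK cells and their precursors. The part of such cells was not tested either. Myeloid markers summed to 908 to 1160 in stimulated WT with PGE2 and 1132 to 1374 without, with no peak at 6 of 10 genes. The 66 peaks of NK cell markers summed to 30149 to 35450 in stimulated WT with PGE2 and 32854 to 37804 without.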

How the data were processed

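ATAC-seq of 30 libraries was read from the authors' deposited table of normalised read counts (a coverage signal) over 38526 peaks, with peak positions, classes and gene names as the authors give them. Per the submitters' processing notes, Trimmomatic 0.39, Bowtie2 2.4.1, MACS2 2.2.7.1 and DESeq2 were used on mm10; the handling of duplicates and of the transposase offset was not reported there. Whole reads were recovered from 100% of values in every library (within 0.05 of a read), and on these edgeR called 5911 peaks with PGE2 in unstimulated and 16061 in stimulated WT cells.

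The 38525 peaks with a mean of at least 10 were fitted with limma 3.58.1 (R 4.3.3; trend, log2 of value plus 1, 8 group means), with two-sided Benjamini-Hochberg adjusted p under 0.05 within each comparison. Steps were tested on simulated data. Alternatives were pseudocounts of 0.5 and 5, no filter, a mean of at least 50, scaling to reads in peaks, TMM, edgeR 4.0.16, DESeq2 1.42.0, a replicate block, only the groups compared, and leaving out each library. Members and gene lists were chosen with earlier results of these data known. Lead peaks have the smallest F-test p of their gene, and up to 2 peaks of a list per comparison, those with the smallest adjusted p, could be named. Promoter windows came from RefSeq GRCm38.p6.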

Additional observations from a re-analysis of the deposited data

Results flagged for a closer look

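Of 120 groups of 4 libraries examined, 3 held a library far from the other 3 of its group at one peak, by Dixon's ratio of gap to range at the 95% level, which chance passes in about 5% of groups. PGE2-treated unstimulated KO replicate 1 read 901 at the 47.4 kb intronic Lef1 peak, and the whole group read 901, 775, 752 and 771. Stimulated PGE2-treated WT replicate 2 read 423 at the 8.4 kb intronic Tcf7 peak, in a group of 375, 423, 375 and 378. Untreated unstimulated WT replicate 1 read 39.3 at the 25.0 kb upstream Lef1 peak, in a group of 39.3, 34, 34.4 and 33.4.

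The effect of a treatment differed between genotypes or between stimulation states in 28 results by a test of the difference itself (limma adjusted p under 0.05, log2 differences throughout). The effect of PGE2 in unstimulated cells, KO minus WT, was -1.54 at the 22.3 kb intronic Tcf7 peak and -0.76 at the 52.9 kb upstream Lef1 peak. The effect of PGE2 in stimulated cells, KO minus WT, was -0.52 at the 8.4 kb intronic peak and -1.12 at the 31.0 kb upstream peak of Tcf7. At Lef1 the same difference was -0.64 at the 163.1 kb upstream peak, -0.54 at the 52.9 kb upstream peak, -1.01 at the 7.7 kb intronic peak and -0.39 at the 29.5 kb intronic peak, and it was -0.82 at the 43.7 kb intronic peak, -0.57 at the 47.4 kb intronic peak and -0.42 at the 98.2 kb intronic peak.

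The effect of PGE2 in WT, stimulated minus unstimulated, was -1.85 at the 22.3 kb intronic peak, 0.80 at the 14.8 kb intronic peak and 0.75 at the 8.4 kb intronic peak of Tcf7, and it was 1.21 at the 26.3 kb upstream peak and 0.87 at the 31.0 kb upstream peak. At Lef1 it was 0.69 at the 163.1 kb upstream peak, -1.44 at the 25.0 kb upstream peak, 0.90 at the 7.7 kb intronic peak, 0.60 at the 29.5 kb intronic peak and 0.75 at the 47.4 kb intronic peak. The effect of stimulation under PGE2, KO minus WT, was 1.40 at the 22.3 kb intronic peak and -0.74 at the 31.0 kb upstream peak of Tcf7 and -0.56 at the 163.1 kb upstream peak, 0.94 at the 25.0 kb upstream peak, -0.91 at the 7.7 kb intronic peak, -0.65 at the 29.5 kb intronic peak and -0.60 at the 47.4 kb intronic peak of Lef1.

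Of these differences 6 were lost under some fits. The stimulation effect under PGE2, KO minus WT, was lost at the 31.0 kb upstream Tcf7 peak under DESeq2 (adjusted p = 0.0589) and without any of stimulated PGE2-treated KO replicates 3 and 4, unstimulated PGE2-treated KO replicates 1 and 2, stimulated PGE2-treated WT replicates 1 and 2 or unstimulated PGE2-treated WT replicates 2 and 4 (up to 0.114). The same effect was lost at the 163.1 kb upstream Lef1 peak without any of stimulated PGE2-treated KO replicates 3 and 4, unstimulated PGE2-treated KO replicate 1, stimulated PGE2-treated WT replicates 1, 3 and 4 or unstimulated PGE2-treated WT replicates 2, 3 and 4 (up to 0.0756). At the 25.0 kb upstream Lef1 peak it was lost without stimulated PGE2-treated KO replicate 3, unstimulated PGE2-treated KO replicate 1 or unstimulated PGE2-treated WT replicate 4 (up to 0.0908). The PGE2 effect in stimulated cells, KO minus WT, was lost at the 8.4 kb intronic Tcf7 peak as given beside that result (up to 0.111). At the 29.5 kb intronic Lef1 peak it was lost with only the groups compared (0.0643), and without stimulated PGE2-treated KO replicate 2, stimulated untreated KO replicate 4, stimulated PGE2-treated WT replicate 4 or stimulated untreated WT replicates 2 or 3 (up to 0.0785). The PGE2 effect in WT, stimulated minus unstimulated, was lost at the 14.8 kb intronic Tcf7 peak without unstimulated PGE2-treated WT replicate 2 or 3 or stimulated untreated WT replicate 3 or 4 (up to 0.0598).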

How the results depend on the processing

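The 10 alternatives and the 30 fits without a single library gave 2697 repeats of the 141 called peak results, and no direction reversed. In 2570 of these repeats the call was kept, and in 127, spread over 31 results, it was lost. With the replicate block, the 141 calls were all kept, and PGE2 in unstimulated WT called 9 of the 20 peaks, 8 higher and 1 lower (5 higher and 0 lower without the block), KO against WT called 1 in untreated unstimulated and 2 in untreated stimulated cells (0 and 0), and DESeq2 called 1 in the first of these. The replicate numbers are not stated to pair libraries: the correlation of same-numbered libraries' deviations from their group means ran from -0.02 to 0.53 (median 0.06), and 26 of the 30 libraries were on average closest to their own number. Without single libraries in turn, the number of called peaks ran from 3 to 5 for PGE2 in unstimulated WT, 2 to 4 for stimulation under PGE2 in WT, 0 to 2 and 0 to 1 for KO against WT in untreated unstimulated and untreated stimulated cells, 5 to 10 for KO against WT in PGE2-treated unstimulated cells, and 4 to 8 for the effect of stimulation under PGE2, KO minus WT. The other comparisons stayed within 1.5 times their count under every alternative. The cause of these changes was not tested. Depth limits the weakest peaks most, where 1 read is worth 0.6628 to 1.6644 normalised counts.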
